A study of Mus musculus with 4 samples.

Results

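The proteasome genes described here are the 48 genes, of 32647 in the table, whose symbol is Psm followed by one of the letters a to g and a number. They were picked by name and not by any measured value, and they make up the core particle, the regulatory particle, the activators, an inhibitor and the assembly chaperones of the proteasome. Their RNA was measured in recruited renin cells, which are kidney cells that take up renin synthesis when blood pressure or sodium is threatened. The cells were sorted by their YFP fluorescence from the renal cortex of Ren1c-YFP mice, in which a renin promoter drives the reporter, so the cells were gathered by reporter and not by position. Per the study, the reporter marks all cells that express renin. Cells already making renin before the treatment were therefore not kept apart from newly recruited ones. All mice were C57BL/6 animals 2 months old, and all received captopril, which blocks the formation of angiotensin II, at 0.5 g/L in the drinking water with a diet of 0.1% sodium for 7 days. There were 2 mice, called mouse 2 and mouse 1, each sequenced as 2 technical replicates, which gave 4 libraries of 1 condition. No untreated group was analysed here, and the comparisons were therefore between genes, between libraries and between mouse 2 and mouse 1.

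The proteasome is the protease that removes ubiquitin-tagged proteins from the cytosol and the nucleus. Its barrel-shaped 20S core is built of outer alpha rings, which gate the entry, and inner beta rings, which hold the catalytic sites, and the 19S regulatory particle binds the ubiquitin chain, unfolds the substrate and threads it into the barrel. In immune cells and after interferon, the standard catalytic subunits are replaced in newly made particles by inducible ones, which together form the immunoproteasome and shape the peptides shown on class I molecules.

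The libraries held 40788108 and 47471036 estimated counts in mouse 2, and 19871382 and 28774550 in mouse 1. The cDNA was amplified from small pools of cells with no molecular identifiers, and these totals therefore do not give the number of molecules. The identity of the cells was checked with Ren1, the renin gene, which stood at 21904 and 15933 TPM in mouse 2, against 29637 and 28674 TPM in mouse 1. TPM, the number of transcripts of a gene for a fixed total, is a level already divided by transcript length. Genes are called present throughout where each of the 4 libraries gave at least 1 TPM. All 7 genes listed for renin cells and their smooth muscle relatives were present throughout, but so were 6 of the 10 listed for the proximal tubule and 5 of the 7 listed for the later nephron, and fewer cells of a type cannot be told apart from less RNA per cell in such pools.

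The median proteasome gene was among the more abundant mRNAs of recruited renin cells. Of the 48, 28 (58.3%) were present throughout, compared with 9.74% of all genes in the table and 14% of the 21227 protein-coding symbols. Of the other 20, 12 reached that level in 3 libraries, 4 in 2 libraries, 2 in a single library and 2 in none. The median level of the 48, a level being the mean of the 2 mice, was 55.0 TPM. Taken by animal it was 42.6 TPM for mouse 2, against 50.6 TPM for mouse 1. The median of the 19229 genes above 0 TPM in any library was 1.33 TPM, and 93.3% of them lay below the median proteasome gene. For the 3179 genes present throughout, the median was 29.5 TPM. Together the 48 genes held 0.503 ± 0.106% of all TPM (SD, n = 2 mice).

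**Figure D1:**
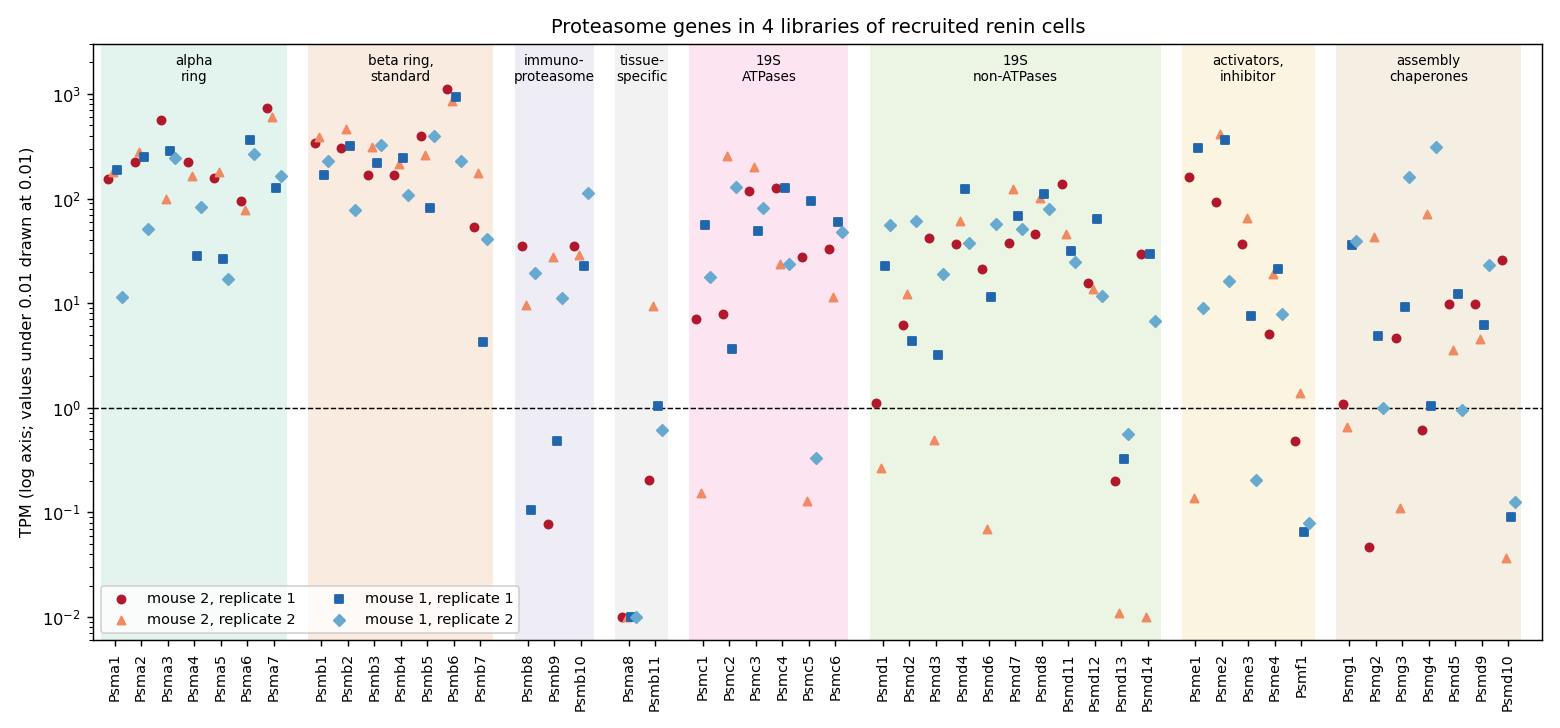
TPM of each of the 48 proteasome genes in the 4 libraries, on a log axis, grouped by part of the particle; red and orange points are the replicates of mouse 2, dark and light blue points those of mouse 1, values under 0.01 TPM are drawn at 0.01, and the dashed line marks 1 TPM. The 14 alpha and standard beta genes lie above the line in every library, while 20 of the other 34 genes have at least 1 point under it.

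The 7 alpha ring genes, which form the outer rings and the gate of the core, were all present throughout, with a median of 201 TPM. Psma7 had 728 and 598 TPM in mouse 2 and, in mouse 1, 125 and 165 TPM, a mean of 404 ± 366 TPM (SD, n = 2 mice) and the highest level of the ring. Psma5 was lowest, with 156 and 179 TPM in mouse 2, against 26.4 and 16.8 TPM in mouse 1. For both genes the libraries of mouse 2 were well above those of mouse 1. Psma6 went the other way, with 94.3 and 77.3 TPM in mouse 2, against 366 and 266 TPM in mouse 1. Psma1, Psma2, Psma3 and Psma4 had levels between 126 and 299 TPM, and the lowest value of the whole ring in any library was 11.5 TPM, for Psma1 in replicate 2 of mouse 1. The order within the ring was not settled beyond the spread between the mice, since the SD over mice of Psma7 and Psma5 was about as large as their level.

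The 7 standard beta ring genes were likewise all present throughout, with a median of 280 TPM. Psmb6, which carries the caspase-like activity, was the highest proteasome gene of all, with 1103 and 850.3 TPM in mouse 2 and, in mouse 1, 942 and 231 TPM, a mean of 781 ± 276 TPM. It was the highest of the 14 alpha and standard beta genes in 3 libraries and the fifth in replicate 2 of mouse 1, where Psmb5 led with 396 TPM. Psmb7, the trypsin-like subunit, was the lowest, with 53.2 and 176 TPM in mouse 2, against 4.25 and 41.0 TPM in mouse 1. Psmb5, the chymotrypsin-like subunit, had 394 and 259.5 TPM in mouse 2 and, in mouse 1, 80.3 and 396 TPM. The other 4 genes, Psmb1, Psmb2, Psmb3 and Psmb4, which have no active site, had levels of 183 to 291 TPM.

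The intact core particle holds each alpha and each standard beta subunit in equal number, and the mRNAs of the 14 genes were not equal. The highest level was 11.4-fold the lowest, and the coefficient of variation among the 14 was 68.8%. In single libraries the highest was 20.7-fold and 11-fold the lowest in mouse 2, and 222-fold and 34.3-fold in mouse 1. The lowest gene was Psmb7 in replicate 1 of each mouse, Psma6 in replicate 2 of mouse 2 and Psma1 in replicate 2 of mouse 1, so no single gene was lowest throughout. Without replicate 2 of mouse 2 the 11.4-fold difference was 22.3-fold, and without replicate 1 of mouse 2 it was 7.22-fold.

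The 3 inducible catalytic genes had a median of 16.1 TPM. Psmb8 and Psmb9 had means far below every standard ring gene, while Psmb10, the 1 that was present throughout, lay nearer to the lowest of them and above Psmb7 in both libraries of mouse 1. Psmb8, the inducible counterpart of Psmb5, had 35.1 and 9.66 TPM in mouse 2, against 0.106 and 19.6 TPM in mouse 1, a mean of 16.1 ± 8.88 TPM. Psmb9, the counterpart of Psmb6, had 0.0773 and 27.8 TPM in mouse 2 and, in mouse 1, 0.479 and 11.1 TPM, a mean of 9.88 ± 5.75 TPM. Psmb10, the counterpart of Psmb7, had 34.8 and 29.1 TPM in mouse 2, against 22.8 and 113 TPM in mouse 1, a mean of 49.9 ± 25.4 TPM. Psmb8 was near 0 in 1 library and Psmb9 in 2, 1 of each mouse, and in each case the other replicate of the same mouse held 11.1 TPM or more.

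Within its pair, Psmb8 held 8.18% and 3.59% of the summed TPM of Psmb8 and Psmb5 in mouse 2 and 0.132% and 4.71% in mouse 1, a mean of 4.15 ± 2.45%. Psmb9 held 0.00701% and 3.17% of its pair with Psmb6 in mouse 2 and 0.0509% and 4.61% in mouse 1, a mean of 1.96 ± 0.526%. In every library, then, the standard gene of these pairs was at least 11.2 times the inducible one. Leaving out 1 library moved the mean share of Psmb9 to between 0.819% and 3.10%. Psmb10 held 39.6% and 14.2% of its pair with Psmb7 in mouse 2, against 84.3% and 73.4% in mouse 1, a mean of 52.8 ± 36.7%. Over the 3 pairs the inducible genes held 4.32% and 4.92% in mouse 2 and 2.23% and 17.7% in mouse 1, a mean of 7.29 ± 3.78%, and the mean was 3.43% without replicate 2 of mouse 1 and 11.2% without replicate 1 of mouse 1.

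Psmb10 thus differed from the other inducible genes in its share, and the effective length behind its TPM also varied. Effective length is the number of positions from which a fragment can start, averaged over the isoforms called in that library. For Psmb10 it lay between 195 and 552 bases, a 2.82-fold range, while the median range of the 48 genes was 1.39-fold. Psmb9, whose share was small, had a range as wide, 212 to 602 bases or 2.84-fold. The share of Psmb10 was highest in replicate 1 of mouse 1, where Psmb10 was at its lowest, 22.8 TPM, and Psmb7 at 4.25 TPM. Whether the effective length moved the share of Psmb10 was not tested, since the estimated counts were made from the same TPM. With 2 mice the smallest p that a two-sided exact sign-flip test can give is 0.5, so no test between the shares was run.

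**Figure D2:**
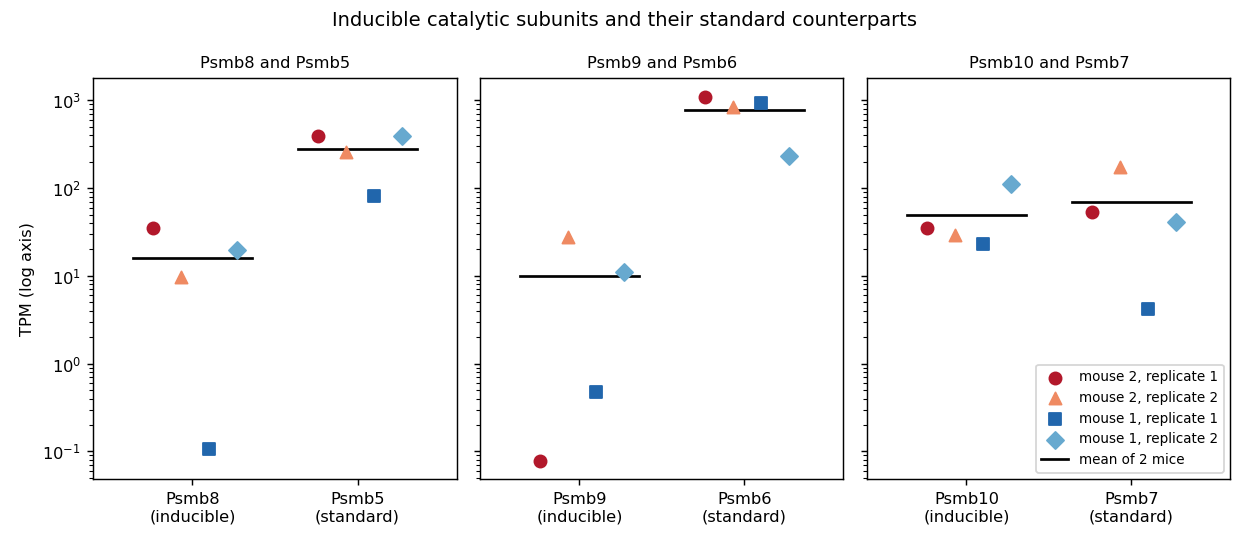
TPM on a log axis of each inducible catalytic gene (left in each panel) and its standard counterpart (right) in the 4 libraries, with black lines at the mean of the 2 mice. Psmb8 and Psmb9 lie below Psmb5 and Psmb6 in every library, whereas the points of Psmb10 and Psmb7 overlap, with means of 49.9 and 68.7 TPM.

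The start regions of the catalytic genes are shown because these 6 genes carry the comparison of inducible and standard subunits. RefSeq promoter entries on GRCm38.p6 were found for 40 of the 48 genes, and none was used for Psmb7. Each line holds the 100 bases before the annotated start, read on the strand of the gene, at chr17:34198095-34198194 for Psmb8 (plus strand), chr17:34187331-34187430 for Psmb9 (minus), chr8:105938393-105938492 for Psmb10 (minus), chr14:54617996-54618095 for Psmb5 (minus) and chr11:70525257-70525356 for Psmb6 (plus). Capitals mark a match, on either strand, to 1 of 4 motifs: the gamma-interferon activated site TTCNNNGAA, the interferon-stimulated response element (GAAA, any 2 bases, GAAA), the antioxidant response element core TGACNNNGC and the CCAAT box CCAAT.
Psmb8: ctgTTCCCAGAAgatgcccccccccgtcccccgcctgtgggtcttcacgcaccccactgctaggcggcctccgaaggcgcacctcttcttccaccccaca
Psmb9: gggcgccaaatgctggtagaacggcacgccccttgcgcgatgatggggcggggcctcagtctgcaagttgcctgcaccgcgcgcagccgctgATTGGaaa
Psmb10: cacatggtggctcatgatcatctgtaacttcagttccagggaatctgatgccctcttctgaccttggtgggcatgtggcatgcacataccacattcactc
Psmb5: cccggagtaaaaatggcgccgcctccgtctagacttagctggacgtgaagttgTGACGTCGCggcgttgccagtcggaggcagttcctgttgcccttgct
Psmb6: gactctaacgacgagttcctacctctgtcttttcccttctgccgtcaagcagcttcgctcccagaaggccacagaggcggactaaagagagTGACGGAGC

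The gamma-interferon activated site lay 97 to 89 bases before the annotated start of Psmb8, the CCAAT box lay 8 to 4 bases before that of Psmb9 on the opposite strand, and the antioxidant core lay 47 to 39 bases before that of Psmb5 and 9 to 1 bases before that of Psmb6. Over the 250 bases before the start, the antioxidant core, a core of the sites that Nfe2l1 and Nfe2l2 bind, was found in 5 of the 40 genes (12.5%), and in 11.5% of all 27025 genes with an entry. The CCAAT box was found in 14 (35%), and in 37.5% of all genes. The gamma-interferon activated site was found in 2 (5%), Psmb8 and Psmg1, and in 8.13% of all genes, and the interferon-stimulated element in 3 (7.5%), Psmb3, Psmd4 and Psmd9, and in 3.46% of all genes. A match is a run of letters and not a measured binding site. The RefSeq starts of Psmb9 and Tap1, which encodes a subunit of the peptide transporter of class I loading, lie 226 bases apart and point away from each other, while in GENCODE, which also holds transcripts of both genes with other starts, their exons overlap. On GRCm38 the GENCODE genes Psmb8 and Psmb9 lie at chr17:34197721-34201454 and chr17:34181987-34187764, and the RefSeq starts used for Psmb8, Psmb9, Psmb10 and Psmb5 fall inside the GENCODE spans of these genes.

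Around the immunoproteasome, the class I genes B2m and H2-K1 were abundant, and the transporter gene Tap1 was not. B2m, the light chain of class I molecules, had 315 and 363 TPM in mouse 2 and, in mouse 1, 252 and 56.5 TPM, and H2-K1, a heavy chain, had 86.4 and 169 TPM in mouse 2, against 58.0 and 61.2 TPM in mouse 1. H2-D1, another heavy chain, had 44.8 and 71.0 TPM in mouse 2, against 0.974 and 8.43 TPM in mouse 1, with no overlap between the mice. Tap1 had 0.937 and 0.234 TPM in mouse 2 and, in mouse 1, 0.0672 and 7.30 TPM. Of 8 listed neighbours and partners, B2m and H2-K1 were the 2 present throughout, and of 8 listed interferon response genes, Irf1 was the 1 that was, with 18.9 and 37.3 TPM in mouse 2, against 87.7 and 8.02 TPM in mouse 1. In replicate 2 of mouse 2, the interferon response genes Ifit3 and Gbp2 had 129 and 12.1 TPM, and the partner gene Nlrc5 had 60.5 TPM. Each of these was under 0.5 TPM in every other library. The interferon response genes Isg15 and Ifit1 were under 0.5 TPM in every library.

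Leukocytes carry the immunoproteasome, and of 15 leukocyte markers 2, Cd52 and Cd74, were present throughout. The summed level of all 15 was 358 and 1009 TPM in mouse 2 and, in mouse 1, 162 and 937 TPM. Cd52, Cd74 and H2-Aa made up most of this sum in each library. Cd52 had 85.7 and 326 TPM in mouse 2 and, in mouse 1, 123 and 445 TPM. Cd74 had 130 and 255 TPM in mouse 2 and, in mouse 1, 10.2 and 351 TPM. The inducible sum was 70.0 and 66.6 TPM in mouse 2, against 23.4 and 144 TPM in mouse 1. The macrophage genes Lyz2 and Cd68 were listed at 0 in all 4 libraries, and Ptprc, the common leukocyte antigen, had 4.70 and 0.0491 TPM in mouse 2 and, in mouse 1, 0.271 and 0.117 TPM. Other markers were higher in some libraries: H2-Aa, a class II chain, had 138 and 427 TPM in mouse 2, against 0.985 and 101 TPM in mouse 1. Cd79a, a B cell gene, had 0.160 and 0.0411 TPM in mouse 2, against 27.0 and 20.7 TPM in mouse 1, and Fcer1g was at 0 in both libraries of mouse 2, against 0.168 and 15.7 TPM in mouse 1. The part of leukocyte RNA in the values of Psmb8, Psmb9 and Psmb10 was not tested. Psmb9 also shares 212 exon bases of GENCODE with Tap1 on the opposite strand, and reads without strand in such a stretch cannot be assigned to either gene.

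The tissue-specific core genes were low. Psma8, the alpha subunit of male germ cells, was listed at 0 in every library. Psmb11, the catalytic subunit of the thymic cortex, had 0.202 and 9.49 TPM in mouse 2, against 1.04 and 0.615 TPM in mouse 1, so its mean of 2.84 ± 2.84 TPM came mostly from 1 library.

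The 19S regulatory particle was lower than the core. Its 6 ATPase genes, which form the unfolding ring, had a median of 56.3 TPM, and 4 of them were present throughout. Psmc3 was the highest, with 118 and 198 TPM in mouse 2 and, in mouse 1, 49.5 and 81.1 TPM. Psmc1 was the lowest, with 6.99 and 0.153 TPM in mouse 2, against 55.7 and 17.8 TPM in mouse 1. Psmc5 split the technical replicates of both mice, with 27.5 and 0.128 TPM in mouse 2, against 95.4 and 0.332 TPM in mouse 1. Psmc2, Psmc4 and Psmc6 had levels of 37.7 to 99.5 TPM and lay between 3.62 and 257 TPM in single libraries.

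The 11 non-ATPase genes of the regulatory particle include its ubiquitin receptor, its scaffolds and the deubiquitinase that clips the chain, and 6 of them were present throughout. Their median was 22.5 TPM, and it was 33.9 TPM without replicate 1 of mouse 1. Psmd8, a lid subunit, was the highest, with 46.1 and 101 TPM in mouse 2 and, in mouse 1, 111 and 79.1 TPM. Psmd4, a ubiquitin receptor, had 36.4 and 61.6 TPM in mouse 2, against 122 and 37.5 TPM in mouse 1. Psmd7, the inactive partner of the deubiquitinase, had 37.9 and 123 TPM in mouse 2 and, in mouse 1, 68.8 and 51.7 TPM. Psmd2, a scaffold of the base, and Psmd11 and Psmd12, both of the lid, had levels of 20.9 to 60.0 TPM.

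The other 5 non-ATPase genes fell under 1 TPM in at least 1 library. Psmd14, the deubiquitinase, had 29.3 and 0.00872 TPM in mouse 2, against 29.5 and 6.78 TPM in mouse 1. Psmd1, the other large scaffold of the base, had 1.11 and 0.265 TPM in mouse 2, against 22.6 and 56.4 TPM in mouse 1. Psmd3 had 42.0 and 0.495 TPM in mouse 2 and, in mouse 1, 3.22 and 18.8 TPM, and Psmd6 had 21.4 and 0.0697 TPM in mouse 2, against 11.5 and 57.1 TPM in mouse 1. Replicate 2 of mouse 2 was thus under 0.5 TPM for all 4 of these genes.

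Psmd13 was the member of the lid that was under 1 TPM everywhere. It had 0.200 and 0.0108 TPM in mouse 2 and, in mouse 1, 0.321 and 0.559 TPM, while each of the other lid genes among the 48 reached at least 29.5 TPM in some library. Its exons share 342 bases with Sirt3, a mitochondrial deacetylase gene on the opposite strand, which had 91.2 and 57.4 TPM in mouse 2, against 0.228 and 26.4 TPM in mouse 1. The effective length of Psmd13 lay between 78.0 and 1232 bases, a 15.8-fold range, so its level is uncertain. Whether reads of Psmd13 were assigned elsewhere was not tested.

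Set against each other, the 14 alpha and standard beta genes had a median of 228 TPM and the 17 genes of the regulatory particle a median of 30.8 TPM, a 7.39-fold difference, on which no test was run. It was present in each library, at 7.65-fold and 19.2-fold in mouse 2 and at 4.08-fold and 3.65-fold in mouse 1. Of the 17 genes, 12 lay below Psmb7, the lowest of the 14. Genes of the core were also shorter, with a median effective length of 727 bases, against 966 bases for the regulatory particle, and in these libraries short genes had higher TPM in general: genes present throughout had a median of 179 TPM under 500 bases and 14.1 TPM from 1500 bases. Among members of 500 to 1000 bases the median was 201 TPM for 9 core genes and 60.0 TPM for 9 regulatory genes, which is 3.35-fold, while all 697 present genes of that length had 55.8 TPM. In estimated counts the median core gene was 8972 and 11792 in mouse 2 and 4559 and 4202 in mouse 1, and the median regulatory gene was 1269 and 1418 in mouse 2 and 1567 and 1336 in mouse 1.

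**Figure D3:**
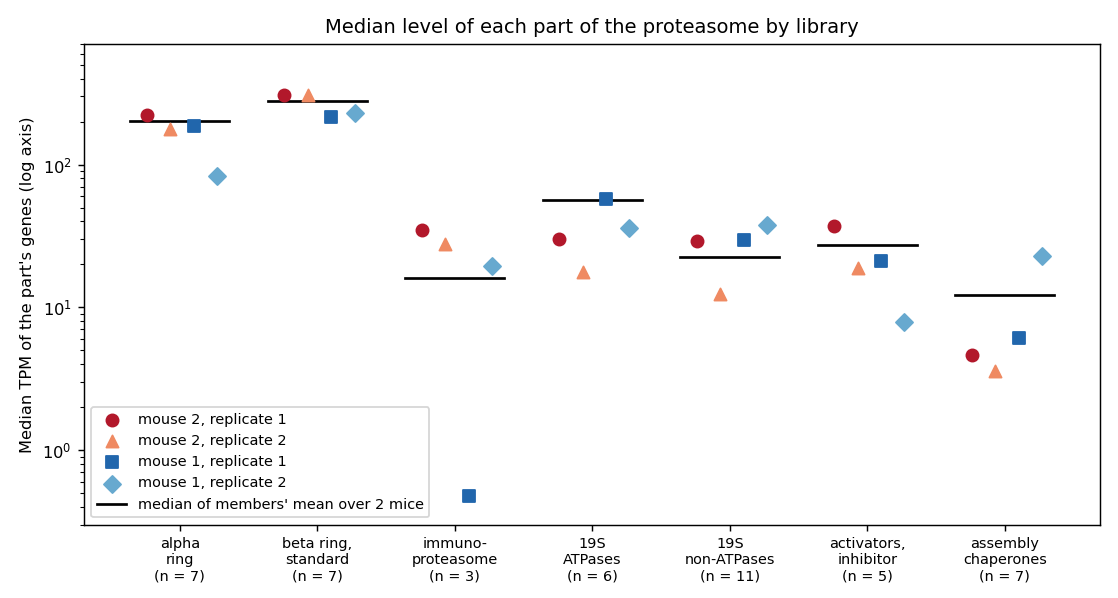
Median TPM, on a log axis, of the genes of each part in each library, with black lines at the median of the genes' means over the 2 mice. The alpha and standard beta medians of 201 and 280 TPM stand above the 19S medians of 56.3 and 22.5 TPM, and no library of the standard rings falls below any library of another part.

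**Figure D4:**
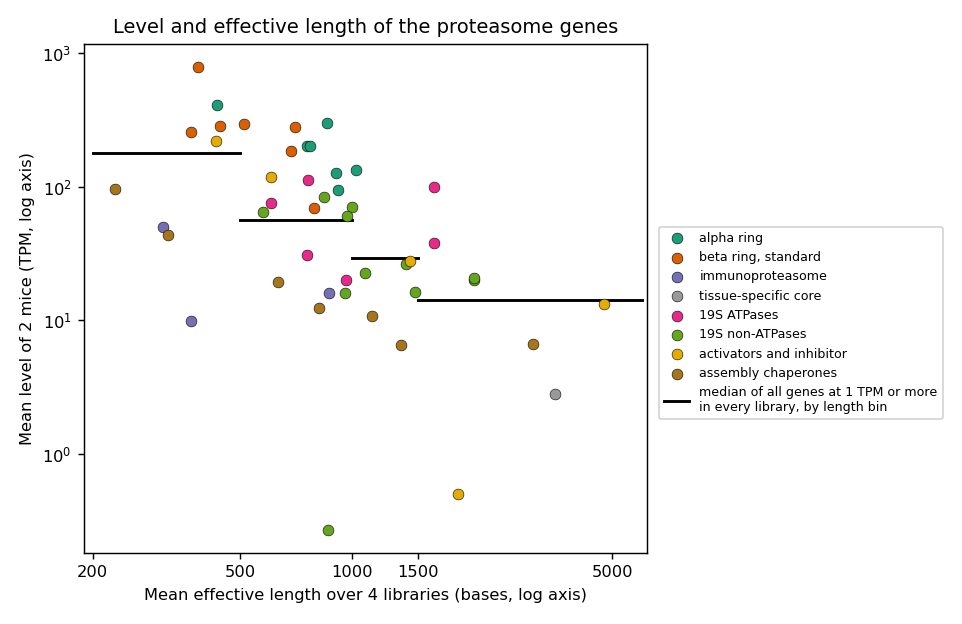
Mean level of the 2 mice (TPM, log axis) and mean effective length (bases, log axis) of the proteasome genes above 0 TPM, coloured by part; black lines give the median of all genes at 1 TPM or more in every library for each length bin. Between 500 and 1000 bases the alpha and standard beta genes lie above the line at 55.8 TPM, and the 19S genes lie on both sides of it.

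The activators of the core differed among themselves. Psme1 and Psme2 form the PA28 cap that interferon induces in immune cells. Psme2 had 92.7 and 411 TPM in mouse 2 and, in mouse 1, 364 and 16.4 TPM, and its mean of 221 ± 43.6 TPM was the highest of the group. Psme1 had 161 and 0.138 TPM in mouse 2, against 304 and 9.09 TPM in mouse 1. The partners of this cap therefore stood apart in replicate 2 of mouse 2, where Psme2 was at its highest and Psme1 at its lowest. In each other library they lay closer together. Psme1 was among 6 proteasome genes under 0.5 TPM in replicate 2 of mouse 2 and at 10 TPM or more in replicate 1. Psme1 shares 14 exon bases with Emc9 on the opposite strand.

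Psme3, the nuclear activator, had 37.0 and 65.4 TPM in mouse 2, against 7.61 and 0.204 TPM in mouse 1. Psme4, the large PA200 activator, was present throughout, at 5.10 and 18.9 TPM in mouse 2 and, in mouse 1, 21.0 and 7.95 TPM. Psmf1, the PI31 regulator first described as an inhibitor, was low throughout, at 0.479 and 1.40 TPM in mouse 2, against 0.0644 and 0.0784 TPM in mouse 1.

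Of the 7 assembly chaperones, which build the rings and the base and then leave, Psmd9 was the 1 present throughout, at 9.78 and 4.51 TPM in mouse 2 and, in mouse 1, 6.13 and 22.9 TPM. The median of the 7 was 12.3 TPM, and it was 19.3 TPM without replicate 1 of mouse 2. Psmg4 had the highest level, with 0.607 and 71.7 TPM in mouse 2, against 1.05 and 312 TPM in mouse 1. Psmg3, its partner in the chaperone pair of the alpha ring, had 4.62 and 0.109 TPM in mouse 2, against 9.27 and 160.0 TPM in mouse 1. Psmg1 had 1.08 and 0.652 TPM in mouse 2, against 36.4 and 39.7 TPM in mouse 1, whereas Psmg2, with which it forms a dimer, had 0.0468 and 43.2 TPM in mouse 2 and, in mouse 1, 4.84 and 0.986 TPM. Psmg3 and Psmg4 were thus both at their highest in replicate 2 of mouse 1, whereas Psmg1 and Psmg2 were at their highest in different mice.

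The chaperones of the base were low as well. Psmd5 had 9.74 and 3.60 TPM in mouse 2, against 12.2 and 0.945 TPM in mouse 1. Psmd10, known also as gankyrin, had 25.8 and 0.0368 TPM in mouse 2 and, in mouse 1, 0.0905 and 0.125 TPM, so that 1 library carried nearly all of its signal.

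Proteasome genes outside the naming rule were described from a list of 22, of which 21 were in the table and 9 were present throughout. Shfm1, which encodes the smallest lid subunit, had 103 and 142 TPM in mouse 2, against 276 and 321 TPM in mouse 1. Pomp, the maturation factor of the core, had 118 and 128 TPM in mouse 2 and, in mouse 1, 201 and 153 TPM, a mean of 150.0 ± 38.6 TPM, which was above every chaperone of the rule. Adrm1, a ubiquitin receptor of the base, had 74.0 and 0.300 TPM in mouse 2, against 139 and 82.7 TPM in mouse 1. The deubiquitinases that ride on the regulatory particle, Usp14 and Uchl5, were present throughout with means of 7.65 and 18.2 TPM. Between the mice, 0 of these 21 differed by at least 4-fold on TPM + 1 without overlap, while 11% of all genes above 0 TPM did. With only 21 genes, that count does not show that they were steadier than other genes.

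Nfe2l1, the factor that raises proteasome genes when the protease is inhibited, had 18.0 and 40.0 TPM in mouse 2 and, in mouse 1, 25.1 and 20.5 TPM. Nfe2l2 had 27.3 and 11.9 TPM in mouse 2, against 18.4 and 38.4 TPM in mouse 1, and both genes were present throughout. The processing partners of Nfe2l1 were low. Ddi2, the protease that cleaves Nfe2l1, had 0.850 and 0.704 TPM in mouse 2 and, in mouse 1, 0.260 and 0.393 TPM. Ngly1, which removes the glycans of Nfe2l1, had 0.606 and 0.0118 TPM in mouse 2, against 0.0527 and 7.85 TPM in mouse 1. Ubb, a polyubiquitin gene, was present throughout with a mean of 1062 ± 210 TPM.

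Mouse 2 and mouse 1 were compared by asking whether both replicates of one lay beyond both of the other. Without any limit on the fold, 9 proteasome genes (18.8%) were higher in mouse 2, where 9.21% of the 19229 genes above 0 TPM were, and 7 (14.6%) were lower, where 24.2% were. With means at least 4-fold apart on TPM + 1 as well, 4 (8.33%) were higher, where 4.12% of those genes were, and 4 (8.33%) were lower, where 6.9% were. No p goes with these calls, since technical replicates measure 1 animal each.

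The 4 genes higher in mouse 2 were Psma5, Psma7, Psmb7 and Psme3. Their log2 differences on TPM + 1 were 2.90 for Psma5, 2.18 for Psma7, 2.29 for Psmb7 and 3.41 for Psme3. The 4 lower genes were Psmc1 with a log2 difference of -3.05, Psmd1 with -4.59, Psmg1 with -4.39 and Psmg3 with -4.67. The higher genes were thus 3 of the core and an activator, and the lower genes were 2 of the regulatory particle and 2 chaperones. The median log2 difference was 0.74 over the 14 core genes, -0.38 over the 17 regulatory genes and 0.21 over all 48, with -0.07 over all genes above 0 TPM.

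With a library left out the rule compares 2 values with 1 and is looser, and the 8 calls (16.7% of the 48, and 11% of all genes) became 14 without replicate 1 of mouse 1 (29.2%, and 16.4% of all genes). They became 14 without replicate 2 of mouse 1 (29.2%, and 16.4% of all genes), 18 without replicate 1 of mouse 2 (37.5%, and 19.6%) and 11 without replicate 2 of mouse 2 (22.9%, and 18.6%). Psma7 and Psmb7 were not called without replicate 1 of mouse 1, Psmb7 was not called without replicate 2 of mouse 2, and Psmg3 was not called without replicate 2 of mouse 1, where its log2 difference was -1.61. Markers of other cells differed between the mice too. Of the later nephron, 5 of the 7 genes were called higher in mouse 2, with sums of 1506 and 1324 TPM in mouse 2 and, in mouse 1, 71.2 and 298 TPM, and the 10 proximal tubule genes summed to 2256 and 14459 TPM in mouse 2, against 1112 and 1422 TPM in mouse 1. Kap carried most of the proximal difference, and the other 9 summed to 1020 and 3319 TPM in mouse 2, against 1056 and 1402 TPM in mouse 1. The proximal gene Slc5a2, the podocyte gene Podxl and the class II gene H2-Aa were also called higher in mouse 2, as was Kap. The smooth muscle gene Cnn1 and the leukocyte genes Cd79a and Fcer1g were called lower. The part of all these markers in the mouse difference was not tested.

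**Figure D5:**
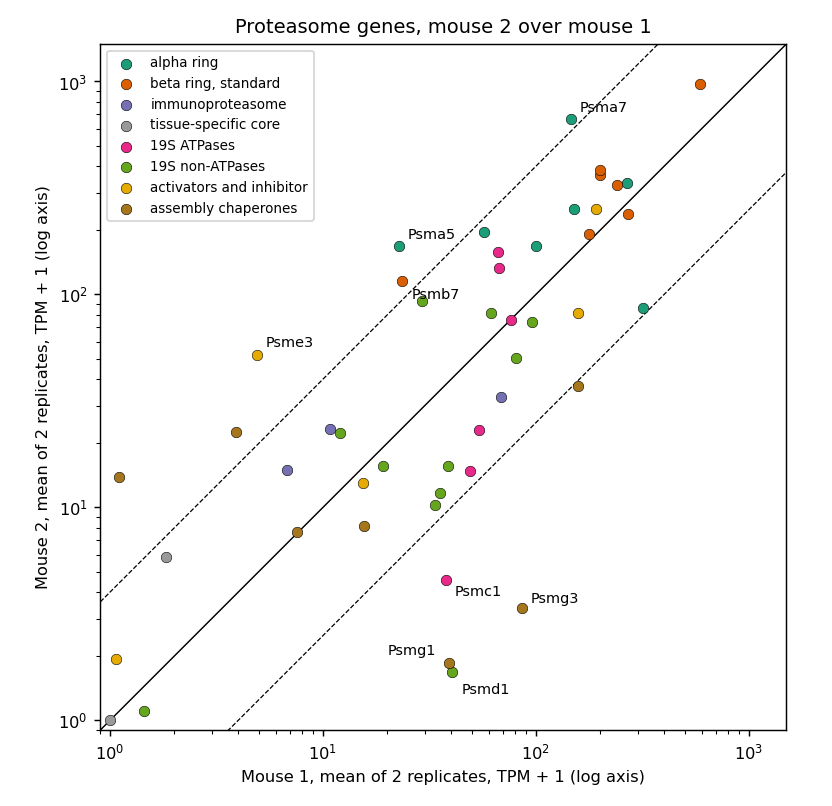
Mean TPM + 1 of mouse 2 (vertical) and mouse 1 (horizontal) for each of the 48 genes, both axes log, with the line of equality and dashed lines at 4-fold. The 8 genes named on the plot lie beyond a dashed line and have no overlap between the mice; 4 are higher and 4 lower in mouse 2.

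Technical replicates of 1 mouse often disagreed on whether a gene was there. In mouse 2, 38 proteasome genes reached 10 TPM in a replicate and 8 of these (21.1%) were under 0.5 TPM in the other, where 30.3% of all genes that reached 10 TPM did so. In mouse 1 it was 3 of 41 (7.32%), where 21% of all such genes did so. Psmb9 and Psmc5 did so in both mice, and 9 genes did so in either. Of the 14 alpha and standard beta genes 0 were among the 9, which were Psmb8, Psmb9, Psmc5, Psmd3, Psmd6, Psmd14, Psme1, Psmg2 and Psmd10. In mouse 2, 6 of the 8 were under 0.5 TPM in replicate 2, as were 864 of the 1528 genes so split in the whole table, and in that library 10 of the 17 regulatory genes were at 1 TPM or more, against 16 in replicate 1.

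Replicates of 1 mouse were not always closer than libraries of different mice. Over the 47 genes above 0 TPM, the Spearman correlation of TPM was 0.68 between the replicates of mouse 2 and 0.42 between those of mouse 1, and it lay between 0.49 and 0.74 for the 4 pairs across mice. The typical gap was smaller in the core than elsewhere in mouse 2: the median fold between its replicates was 1.29 over the 14 core genes and 3.23 over the other members, while in mouse 1 it was 2.56 and 3.63. Over all 4364 genes with a level of at least 10 TPM, it was 2.98 in mouse 2 and 2.58 in mouse 1. The genes were not matched for level. The values describe pairs of libraries, of which those of 1 mouse share the animal, and carry no test.

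Some members share sequence with other genes. The exons of 13 of the 48 overlap an exon of another annotated gene on GENCODE M21, among them Psmb7 with Nek6 over 405 bases and Psmc3 with Slc39a13 over 215 bases, both on opposite strands. Nek6 was at 0.206 and 0.378 TPM in mouse 2 and, in mouse 1, 0.275 and 0.0218 TPM, and Slc39a13 at 17.9 and 20.1 TPM in mouse 2, against 6.66 and 0.132 TPM in mouse 1. Psme2b, a copy of Psme2 that the rule does not take, was at 0 and 5.71 TPM in mouse 2 and at 0 in both libraries of mouse 1. Effective lengths varied more than 2-fold between libraries for 11 of the 48 genes, including Psmb9, Psmb10, Psme3, Psmd9 and Psmd13. Of all genes above 0 TPM, 19.7% varied as much. TPM is divided by that length.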

How the data were processed

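RNA from sorted recruited renin cells of 2 mice was sequenced as 2 technical replicates each. Per the labels and the study's methods, the authors cleaned reads with Trimmomatic 0.36, mapped them to GRCm38 (mm10) transcripts with Salmon 0.7.2 and summed isoforms into genes with Tximport 1.2.0; FastQC served for quality. Their Ensembl release was not given in the sources read here. In the deposited TPM every library has 1 fixed total. The deposited estimated counts are TPM multiplied by 1 length for each gene, averaged over the libraries, and by a factor for each library, and are not whole reads. The deposited effective lengths in bases average over the isoforms of a gene. A further deposited column of mean TPM by the authors averages 3 libraries and leaves out replicate 1 of mouse 1.

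Members were found by symbol. Replicates were averaged within each mouse, and the 2 mice were then averaged to give a level. Calls between mice need no overlap and a 4-fold difference on TPM + 1, the pseudocount being 1 TPM. Every member was to be given, with values in every library for the inducible genes and their counterparts, the extremes of each part, members under 1 TPM and members called. Members and lists were chosen with earlier results of these data known. Alternatives left out each library, used each mouse alone, rescaled the totals without mitochondrial genes or the 20 highest genes, and changed each minimum, fold and pseudocount. Gene positions and classes are from GENCODE M21, where 96.4% of symbols were found. Python 3.11.15, pandas 2.3.3, numpy 2.4.6 and matplotlib 3.10.9 were used, and the code was tested on simulated data. Simulated replicates were much closer than the real ones, so that test does not show how well the calls between mice work here. Precision is limited by 2 mice.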

Additional observations from a re-analysis of the deposited data

Results flagged for a closer look

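Among 4 libraries, a value was marked where its gap to the nearest other value exceeded Dixon's critical share of the whole range. Chance gives this in about 1 of 20 groups of independent, normally distributed values. These libraries are technical replicates in pairs, so that rate does not apply to them. Of 59 quantities examined, each with 4 values, 8 held a value that stood apart, all of them high. Of the 47 genes above 0 TPM, 7 were marked (14.9%), against 44.1% of the 19229 genes above 0 TPM. In mouse 2, Psmd10 stood apart in replicate 1 at 25.8 TPM, Psmb11 in replicate 2 at 9.49 TPM and Psmg2 in replicate 2 at 43.2 TPM. In mouse 1, Psmd12 stood apart in replicate 1 at 64.1 TPM, and in replicate 2 so did Psmb10 at 113 TPM, Psmd2 at 60.7 TPM, Psmg3 at 160.0 TPM and the median of the assembly chaperones at 22.9 TPM.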

How the results depend on the processing

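Leaving out 1 library at a time gave 29 to 36 proteasome genes at 1 TPM or more in every remaining library, and each alternative kept this count within 24 to 37. The same step gave a median level of 43.8 to 47.6 TPM for the 48 genes, 151 to 226 TPM for the alpha ring, 40.4 to 61.4 TPM for the 19S ATPases and 9.44 to 19.3 TPM for the assembly chaperones. It gave 3.43% to 11.2% for the inducible share of the 3 catalytic pairs, and 11 to 18 genes called different between the mice. Mouse 2 alone gave medians of 42.6 TPM for the 48 genes and 48.4 TPM for the ATPases. Mouse 1 alone gave a median of 145 TPM for the alpha ring, a 27.1-fold spread among the 14 core genes and 3 genes split between replicates. Totals without mitochondrial genes gave medians of 66.3 TPM for the 48 genes and 67.6 TPM for the ATPases. Totals without the 20 highest genes, which scale every other gene up by construction, gave 104 TPM for the 48 genes, 0.925% of TPM held by them, and medians of 364 TPM for the alpha ring, 514 TPM for the standard beta ring, 31.3 TPM for the inducible genes, 106 TPM for the ATPases, 42.3 TPM for the non-ATPases and 20.6 TPM for the chaperones. The authors' mean gave 158 TPM for the alpha ring and 44.1 TPM for the ATPases. The mean of the 3 pairs' shares was 19.7%, since it weights the pair of Psmb10 as much as the others. Calls between the mice numbered 13 at 2-fold and 5 at 8-fold. Except for the rescaled totals, the cause of these changes was not tested.

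The ratio of core to 19S medians stayed between 3.35-fold and 11.5-fold under settings chosen after seeing the data, among them each mouse alone, the authors' mean, estimated counts and members of 500 to 1000 bases. The count of genes split between replicates has no value with a library left out, since 1 mouse then has a single library. No paired analysis was possible because there is 1 group. With 2 mice and amplified cDNA, a low value in a library cannot be told apart from a transcript lost before sequencing.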
